A study of Mus musculus with 9 samples.

Results

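The cytosolic ribosomal protein genes encode the proteins that, together with ribosomal RNA, form the small (40S) and large (60S) subunits of the ribosome that translates nuclear-encoded mRNA. They were chosen by symbol: an Rpl or Rps name followed by a number and at most 1 of the letters a, x, l or y, or Rplp0, Rplp1, Rplp2, Rpsa or Fau. Of 27179 rows in the count table, 84 fitted this pattern. Rpl6l, Rps4l and Rpl32l were left out as annotated pseudogenes, Rpl32l by GENCODE alone, which left 81 genes, 49 of the large and 32 of the small subunit. They lie on 20 chromosomes. Of these, 77 are the standard genes and 4 are alternate copies, namely Rpl3l, Rpl10l, Rpl39l and Rps27l. Rps3a1 and Rack1 also encode a ribosomal protein and a subunit component but fall outside the naming pattern, and Rack1 is described apart.

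RNA was sequenced from HPC7, a mouse line of immature blood progenitors, grown in RPMI that held 10% FCS, 0.05 mM 2-mercaptoethanol and, as cytokine, 100 ng/ml mSCF. All cells carried an MSCV-IRES-GFP retrovirus and were sorted for green fluorescence a week after transduction. The 3 groups, with 3 libraries each, received a vector with wild-type Snai1, a vector with a mutant Snai1 that has alanine in place of the phenylalanine at residue 5 and binds the histone demethylase Lsd1 poorly, or the empty vector. Snai1 is a zinc finger repressor whose first residues form the SNAG domain that recruits Lsd1. HPC7 is a single line, the vector's promoter drives Snai1 far above the cell's own level, and the sort selects for the vector, not for a stage. Nothing states that the replicates came from separate transductions or cultures, and if they did not, the spread that the p-values measure is technical.

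Total counts per library ran from 18332451 to 20860314. Snai1 was at 425, 488 and 562 CPM with wild-type Snai1, 471, 415 and 493 CPM with the mutant and 1.06, 0.722 and 0.698 CPM with empty vector, and wild type and mutant differed by less than the spread of the libraries (log2 fold change 0.10, SE 0.11, adjusted p = 0.479). A row without a symbol took 3.62% of empty vector replicate 1 and 0.101% to 0.280% of the other libraries. Of the 13 markers of blood progenitors, 13 passed the filter on low counts. So did 15 of 18 markers of monocytes and macrophages, so that passing the filter does not identify the cells. Kit, the stem cell factor receptor, was at 3643, 3284 and 3241 CPM with wild-type Snai1, 3512, 3722 and 3387 CPM with the mutant and 3684, 3592 and 3565 CPM with empty vector.

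Ribosomal proteins are made in near equal numbers and are among the most abundant products of a growing cell. Their mRNAs belong to the TOP class, which begins with a C followed by a run of pyrimidines, and the TOR kinase sets the translation of this class through the binding protein Larp1, while Myc raises transcription of many of the genes. In blood formation the dose of these proteins matters: in humans, loss of 1 copy of any of several ribosomal protein genes causes Diamond-Blackfan anaemia, a failure of red cell production. Surplus Rpl5 and Rpl11 bind Mdm2 and release p53 when ribosome assembly is disturbed.

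With wild-type Snai1 the ribosomal protein genes took a smaller share of the library. Their 81 rows held 1.36%, 1.31% and 1.36% of all counts in the wild-type Snai1 libraries, 1.84%, 1.69% and 1.83% in the mutant libraries, and 1.74%, 1.81% and 1.65% in the empty vector libraries. All 3 wild-type libraries lay below all 6 others, while mutant and empty vector libraries overlapped. The mean share was 1.34% ± 0.0314 with wild-type Snai1, 1.78% ± 0.0830 with the mutant and 1.73% ± 0.0813 with empty vector (SD, n = 3 each). That is a change of -22.4% for wild type over empty vector, 3.07% for mutant over empty vector and -24.7% for wild type over mutant. Without the row that stood apart in empty vector replicate 1, the change of wild type over empty vector was -23.4%. The 95% Wilson interval of each library's share was at most 0.00600 percentage points to either side and covers counting error only.

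Both subunits took part in it. The small subunit genes held 0.596% ± 0.0261 of counts with wild-type Snai1, 0.803% ± 0.0499 with the mutant and 0.781% ± 0.0461 with empty vector. The large subunit genes held 0.747% ± 0.0189 with wild-type Snai1, 0.982% ± 0.0331 with the mutant and 0.951% ± 0.0362 with empty vector (SD, n = 3 each). These are shares of a library: in such bulk samples, fewer cells of a type and less RNA per cell cannot be told apart, and the amount of ribosome in a cell was not measured.

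**Figure D1:**
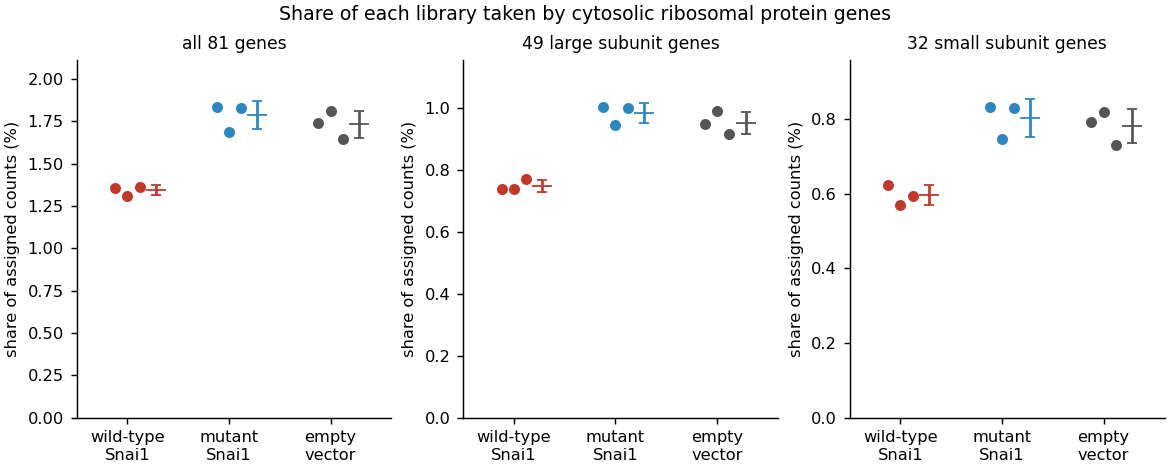
Share of assigned counts (%) taken by all 81 ribosomal protein genes, by the 49 large subunit genes and by the 32 small subunit genes, one point per library, with mean and SD of 3 libraries beside them. The wild-type Snai1 libraries lie at 1.31% to 1.36% for all genes, below the mutant libraries (1.69% to 1.84%) and the empty vector libraries (1.65% to 1.81%).

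The counted level differed widely among genes whose proteins are made in near equal numbers. Levels are given as CPM, the count over the TMM-scaled library size times 1000000, and levels between genes per kilobase of the deposited gene length. The highest, as means of 9 libraries, were Rpl32 at 1513, Rplp1 at 1377, Rps15 at 1119.9, Rpl4 at 1068 and Rpl8 at 998 CPM per kb. At the other end, Rpl13 was at 3.85, Rpl29 at 1.71 and Rpl39 at 0.284 CPM per kb, and the testis-expressed copies Rpl10l and Rpl39l had 0 counts in all 9 libraries. The 5 genes with most counts held 31.0% of the counts of the set, and the 10 with most held 48.6%.

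Many of these genes have processed pseudogenes or other near-identical copies in the mouse genome, and a read that matches several places may be lost or split by the counting, whose treatment of such reads is not given. For each gene, the percentage of 50-base stretches of its coding sequence that occur in no transcript of another annotated gene was therefore computed. Of the 77 standard genes, 28 had 0% such unique stretches, and their level had a median of 23.8 CPM per kb with a range of 3.85 to 396. The 37 genes with some but under 50% unique stretches had a median level of 199 CPM per kb. The 12 genes with at least 50% had a median level of 763 CPM per kb, from 203 to 1513. Across these 77 genes, which share the same libraries, Spearman's rho between unique percentage and level was 0.73 and Pearson's r on the log level 0.63. Rpl13 and Rps6, at 3.85 and 11.9 CPM per kb, both had 0% unique stretches, and how far shared copies set their level was not tested. The log2 fold change of wild-type Snai1 over empty vector had a rho of -0.15 with this measure across 76 tested genes, and its median was -0.26, -0.30 and -0.33 in the groups with 0%, some and at least 50% unique stretches. The share of genes that passed the test differed more: by the same test as below, 9 of 28 were lower in the group with 0%, 22 of 36 with some and 10 of 12 with at least 50%, and the median SE was 0.12, 0.08 and 0.07. Over all tested genes 24.3% were lower.

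**Figure D2:**
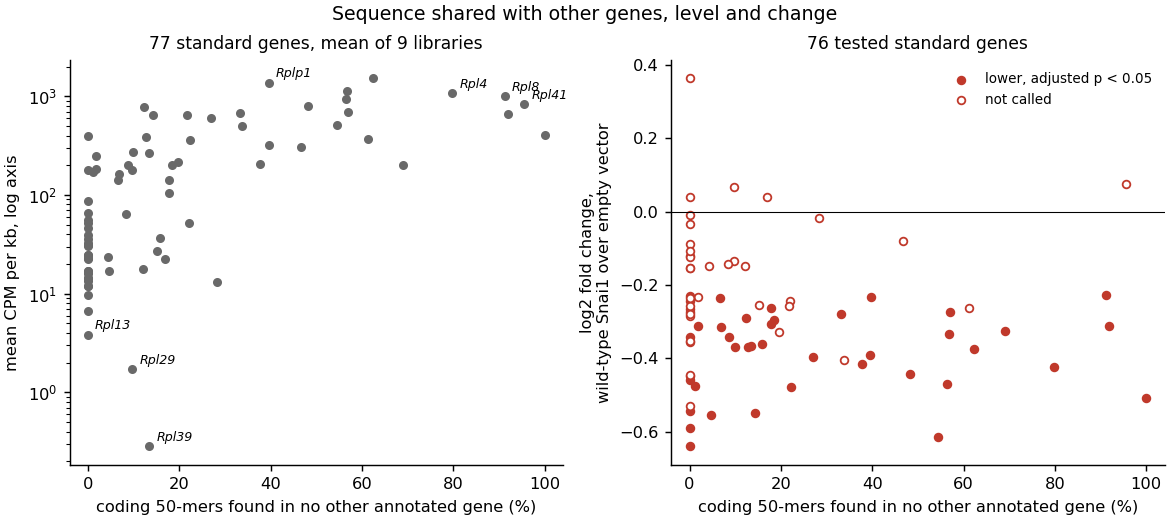
Left, mean level over 9 libraries (CPM per kb, log axis) of the 77 standard genes against the percentage of their coding 50-mers found in no other annotated gene. Right, log2 fold change of wild-type Snai1 over empty vector of the 76 tested standard genes against the same percentage, filled where adjusted p was under 0.05. Levels rise along the axis (medians 23.8, 199 and 763 CPM per kb at 0%, some and at least 50%), while fold changes lie mostly below 0 along its whole length.

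Cells with wild-type Snai1 were first set against those with empty vector, which addresses the effect of Snai1 on progenitors. Ribosomal protein genes were mostly lower with wild-type Snai1, by small amounts that differed between genes. Of the 81 genes, 78 passed the filter on low counts; Rpl10l, Rpl39l and Rpl39, with 20 counts in all, did not. By edgeR's quasi-likelihood test over all 12484 tested genes, called at an adjusted p under 0.05, 41 of the 78 were lower (52.6%), where 24.3% of all tested genes were lower. Only 2, Rps27l and Rpl3l, were higher (2.56%), where 25.2% of all tested genes were higher, and 35 were not called; 49.4% of all tested genes were called in either direction. An unadjusted p under 0.05 was found for 46 of the 78 and for 55.5% of all tested genes. All 3 wild-type libraries lay below all 3 empty vector libraries for 44 of the 78 genes, as for 28.5% of all tested genes, and above them for 2, as for 28.1%. The log2 fold change was below 0 for 71 of the 78. Its median was -0.28, a change of -17.7%, beside -0.000331 over all tested genes. The called falls ran from -0.64 to -0.23, and 0 of them reached 2-fold. Of the 46 tested large subunit genes 22 were lower and 1 higher, with a median of -0.25, and of the 32 small subunit genes 19 were lower and 1 higher, with a median of -0.34. The median was below 0 under all 20 other settings tried, from -0.34 to -0.25.

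The lower genes of the large subunit included Rpl4, Rpl5, Rpl6, Rpl7, Rpl7a, Rpl8, Rpl14, Rpl21, Rpl22, Rpl23, Rpl26, Rpl27a, Rpl28, Rpl32, Rpl35a, Rpl36, Rpl36a, Rpl37, Rpl37a, Rplp0 and Rplp1. Those of the small subunit included Rps3, Rps4x, Rps7, Rps9, Rps14, Rps15, Rps15a, Rps16, Rps18, Rps20, Rps21, Rps23, Rps26, Rps27 and Rpsa. The genes not called were Rpl3, Rpl9, Rpl10, Rpl10a, Rpl11, Rpl12, Rpl13, Rpl13a, Rpl15, Rpl17, Rpl18, Rpl19, Rpl23a, Rpl24, Rpl27, Rpl29, Rpl30, Rpl31, Rpl34, Rpl35, Rpl38, Rpl41 and Rplp2 of the large and Fau, Rps2, Rps6, Rps10, Rps12, Rps13, Rps19, Rps24, Rps25, Rps27a, Rps28 and Rps29 of the small subunit, with log2 fold changes from -0.53 for Rps29 to 0.36 for Rpl10.

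**Figure D3:**
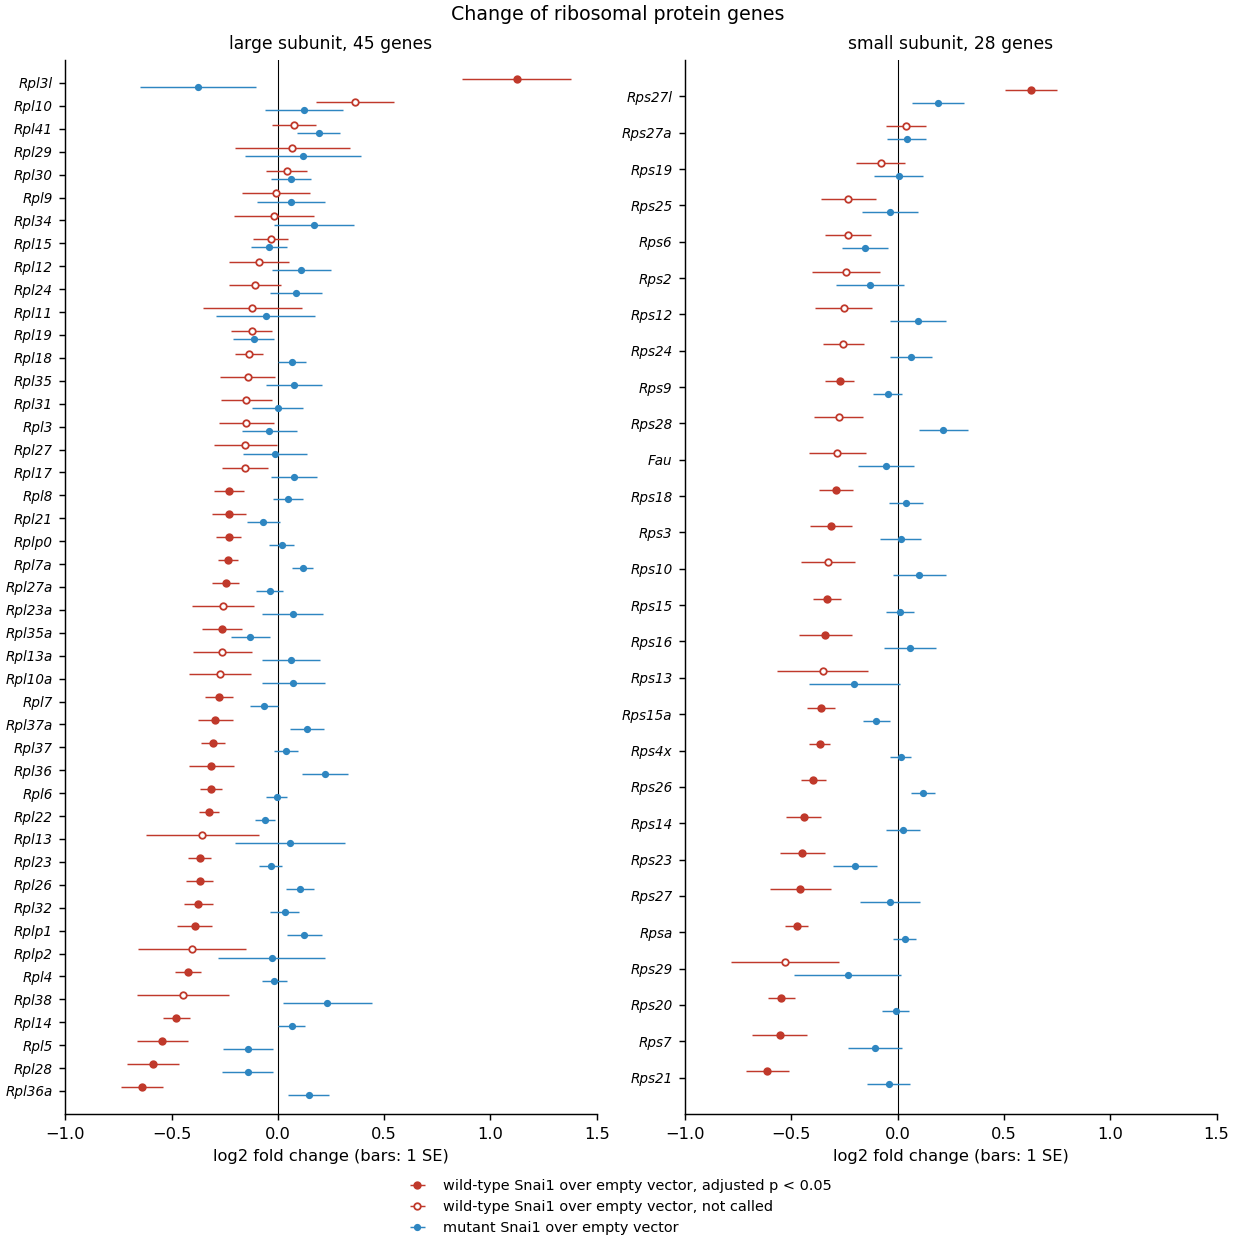
Log2 fold change with 1 SE of 45 tested large subunit genes and 28 tested small subunit genes, ordered by the change of wild-type Snai1 over empty vector (red, filled where adjusted p was under 0.05), with mutant Snai1 over empty vector in blue. The red points of 66 of these 73 genes lie below 0, and the blue points scatter around 0.

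Among the most abundant genes, Rpl4, a protein that lines the exit tunnel of the large subunit, was at 1165, 1234 and 1328 CPM with wild-type Snai1, 1593, 1685 and 1660.2 CPM with the mutant and 1639.8, 1666 and 1690.3 CPM with empty vector. The wild-type libraries lay apart from the other 6, which overlapped each other (log2 fold change -0.42, SE 0.06, adjusted p = 0.000221, against empty vector). Rpl32 was at 636, 614 and 645 CPM with wild-type Snai1, 866, 771 and 873 CPM with the mutant and 879, 809 and 768 CPM with empty vector (log2 fold change -0.37, SE 0.07, adjusted p = 0.00114); it overlaps the gene Cand2. Rps15, of the head of the small subunit, was at 479, 490.5 and 522 CPM with wild-type Snai1, 651, 593 and 649 CPM with the mutant and 636, 658 and 584 CPM with empty vector (log2 fold change -0.33, SE 0.06, adjusted p = 0.00169). Rpl8, which reaches close to the peptidyl transferase centre, was at 754, 741 and 795 CPM with wild-type Snai1, 940.3, 868 and 961 CPM with the mutant and 957, 913 and 812 CPM with empty vector (log2 fold change -0.23, SE 0.07, adjusted p = 0.0209). For each of these 4 genes all wild-type libraries lay under the other 6, and for Rpl32, Rps15 and Rpl8 empty vector replicate 3 was the lowest control. The Rpl8 call was lost without empty vector replicate 1, empty vector replicate 2 or wild-type replicate 2 (adjusted p = 0.0751, 0.0714 and 0.0668).

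The largest falls were in genes of both subunits. Rps21, a small subunit protein, was at 149.6, 149 and 149 CPM with wild-type Snai1, 241, 195 and 228 CPM with the mutant and 238, 252 and 194 CPM with empty vector, so that its 3 wild-type values lay within 1 CPM of each other and under every other library (log2 fold change -0.61, SE 0.10, adjusted p = 0.000654). Rps20, which sits in the head of the small subunit, was at 245, 244 and 256 CPM with wild-type Snai1, 373, 337 and 372 CPM with the mutant and 371, 381 and 338 CPM with empty vector (log2 fold change -0.55, SE 0.06, adjusted p = 5.64e-05). Rpl36a, a zinc-binding protein of the large subunit, had the largest fall, at 10.9, 11.3 and 9.63 CPM with wild-type Snai1, 16.9, 18.01 and 19.98 CPM with the mutant and 17.4, 16.1 and 16.1 CPM with empty vector (log2 fold change -0.64, SE 0.10, adjusted p = 0.000456). For Rps20 and Rpl36a too, the wild-type libraries lay apart from the other 6, and mutant and empty vector libraries overlapped. Rpl28 followed with a log2 fold change of -0.59, Rps7 with -0.55 and Rpl5 with -0.54. Rpl36a, Rpl28 and Rpl5 have 0% unique coding stretches, and their counted levels were 31.0, 30.4 and 13.5 CPM per kb.

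**Figure D4:**
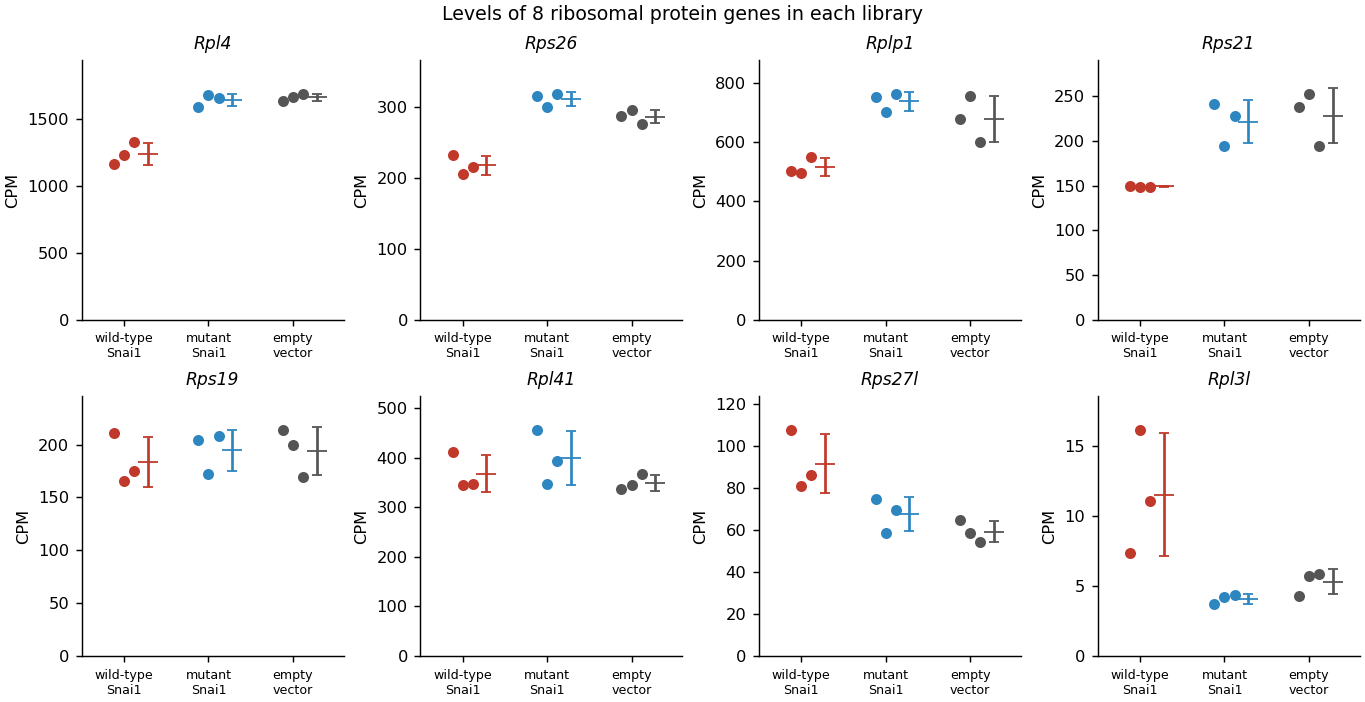
Level (CPM, axes from 0) of 8 ribosomal protein genes in each library, with mean and SD of 3 libraries per group. Rpl4, Rps26, Rplp1 and Rps21 are lowest in the 3 wild-type Snai1 libraries, Rps19 and Rpl41 overlap between groups, and Rps27l and Rpl3l are highest in the wild-type libraries.

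The stalk of the large subunit, a stretch of acidic proteins that calls the translation factors to the ribosome, is made of Rplp0, Rplp1 and Rplp2 with Rpl12 at its base. In this group of 4, 2 fell, where 24.3% of all tested genes did. Rplp1 was at 503, 497 and 551 CPM with wild-type Snai1, 751, 702 and 763 CPM with the mutant and 677, 756 and 600.01 CPM with empty vector, with wild-type libraries below all others (log2 fold change -0.39, SE 0.08, adjusted p = 0.00291). Rplp0 was at 393, 383 and 402 CPM with wild-type Snai1, 495, 436 and 470.05 CPM with the mutant and 472, 468 and 444 CPM with empty vector, again with no overlap between the wild-type libraries and the rest (log2 fold change -0.23, SE 0.06, adjusted p = 0.00755). Rplp2 was at 154, 183 and 211 CPM with wild-type Snai1, 249, 214 and 248 CPM with the mutant and 329, 248 and 148 CPM with empty vector; its control values spread over the whole range of the others and it was not called (log2 fold change -0.40, SE 0.25, adjusted p = 0.223). Without empty vector replicate 3 it was called lower (log2 fold change -0.66, adjusted p = 0.00867). Rpl12 was not called (log2 fold change -0.09, SE 0.14, adjusted p = 0.624), and wild-type replicate 1, at 21.2 CPM, lay below its other 8 libraries.

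Rpl5 and Rpl11 form a particle with 5S ribosomal RNA that joins the large subunit and that can bind Mdm2. Rpl5 was at 24.9, 18.7 and 21.5 CPM with wild-type Snai1, 27.8, 25.7 and 32.6 CPM with the mutant and 33.98, 30.5 and 30.4 CPM with empty vector, lower in all 3 wild-type libraries than in the other 6 (log2 fold change -0.54, SE 0.12, adjusted p = 0.00355); it overlaps Dipk1a. Rpl11 was at 5.53, 11.6 and 10.1 CPM with wild-type Snai1, 8.56, 10.2 and 9.81 CPM with the mutant and 11.1, 10.2 and 8.42 CPM with empty vector and was not called (log2 fold change -0.12, SE 0.23, adjusted p = 0.691). Its wild-type libraries spanned the whole range, with replicate 1 the lowest and replicate 2 the highest of the 9. Both genes have 0% unique coding stretches.

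Among the genes whose loss causes Diamond-Blackfan anaemia in humans, or, for Rps14, the anaemia of the 5q- syndrome, 11 were listed. Of these 11, 7 were lower with wild-type Snai1 and 0 higher, and the median over the 11 was -0.33 on the log2 scale. It was not checked that the list holds every such gene, so these counts stand for the 11 only. Over all tested genes 24.3% were lower and 25.2% higher. Rps14 was at 339, 389 and 416 CPM with wild-type Snai1, 521, 493 and 567 CPM with the mutant and 519, 543 and 493 CPM with empty vector (log2 fold change -0.44, SE 0.08, adjusted p = 0.00126). Rps26, which lies at the mRNA exit, was at 233, 206 and 215 CPM with wild-type Snai1, 316, 299.95 and 319 CPM with the mutant and 288, 296 and 277 CPM with empty vector (log2 fold change -0.40, SE 0.06, adjusted p = 0.000287). Both had all 3 wild-type libraries below the other 6. Rpl26 had a log2 fold change of -0.37, and Rps7 and Rpl5 fell as given above. The fall of Rpl35a (log2 fold change -0.26, SE 0.09, adjusted p = 0.0384) was lost under 8 of the other settings, for example without wild-type replicate 2 (adjusted p = 0.134). Rps19, the gene most often affected in patients, was at 211, 165 and 175 CPM with wild-type Snai1, 204, 173 and 208 CPM with the mutant and 214, 199.5 and 169 CPM with empty vector; the groups overlapped and it was not called (log2 fold change -0.08, SE 0.11, adjusted p = 0.587). Rps10 (log2 fold change -0.33, SE 0.13, adjusted p = 0.0519) and Rps24 (log2 fold change -0.26, SE 0.10, adjusted p = 0.0506) missed the threshold narrowly, and Rps10 was called without empty vector replicate 3 (adjusted p = 0.00227), as was Rps24 without wild-type replicate 1 (0.0171), without mutant replicate 2 (0.0459) or without empty vector replicate 3 (0.0434).

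Some ribosomal proteins are known for further tasks, and 3 of 7 such genes fell, where 24.3% of all tested genes did. Rpsa, also known as a laminin receptor, was at 252, 241 and 263 CPM with wild-type Snai1, 362, 345 and 368 CPM with the mutant and 340.02, 366 and 346 CPM with empty vector (log2 fold change -0.48, SE 0.06, adjusted p = 6.13e-05). Rpl22, needed in mice for the development of certain T cells, was at 359.6, 354 and 364 CPM with wild-type Snai1, 423, 424 and 446 CPM with the mutant and 462, 445 and 442 CPM with empty vector (log2 fold change -0.32, SE 0.05, adjusted p = 0.000308). Rps3, which also acts in DNA repair, was at 1176, 972 and 1030.1 CPM with wild-type Snai1, 1409.6, 1195 and 1378 CPM with the mutant and 1453, 1314 and 1180.01 CPM with empty vector (log2 fold change -0.31, SE 0.10, adjusted p = 0.023). The wild-type libraries of all 3 genes lay below the other 6, for Rps3 only just. The Rps3 call was lost without empty vector replicate 1, empty vector replicate 2, wild-type replicate 2 or wild-type replicate 3 (adjusted p = 0.09, 0.0598, 0.0825 and 0.0834). Rps6, the target of S6 kinase, had a log2 fold change of -0.23 and was not called (adjusted p = 0.0999), but was without wild-type replicate 1 (0.0234) or without empty vector replicate 3 (0.0459). Rpl13a, part in humans of a complex that silences inflammatory mRNAs in myeloid cells, Rpl38, needed in mice for translation of Hox mRNAs, and Rpl10a had log2 fold changes of -0.26, -0.45 and -0.27 and were not called (adjusted p = 0.145, 0.112 and 0.156).

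Rps27a and Fau are made as fusions with ubiquitin or a ubiquitin-like protein, and neither was called. Rps27a was at 12.9, 14.7 and 14.5 CPM with wild-type Snai1, 14.6, 13.4 and 14.2 CPM with the mutant and 14.5, 13.2 and 13.3 CPM with empty vector (log2 fold change 0.04, SE 0.09, adjusted p = 0.749), but its value depended on how its copies were counted: with the counts of its annotated pseudogene rows added, its log2 fold change was -0.25 and it was called lower (adjusted p = 0.0241). Fau had a log2 fold change of -0.28 (adjusted p = 0.103; 0.0437 without empty vector replicate 2). Rpl41, a very short peptide of the large subunit with 95.5% unique coding stretches, was at 412, 346 and 347 CPM with wild-type Snai1, 456, 347 and 394 CPM with the mutant and 336, 345 and 367 CPM with empty vector and did not pass the test (log2 fold change 0.08, SE 0.10, adjusted p = 0.56).

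The 2 alternate copies that were tested, Rps27l and Rpl3l, rose. Rps27l, a near copy of Rps27 that in mice is a p53 target and binds Mdm2, lies on chromosome 9 from 66944624 to 66949522 (GRCm38). It was at 107, 80.8 and 86.1 CPM with wild-type Snai1, 74.6, 58.5 and 69.4 CPM with the mutant and 64.6, 58.6 and 54.4 CPM with empty vector; all 3 wild-type libraries lay above the other 6, with replicate 1 the highest (log2 fold change 0.63, SE 0.12, adjusted p = 0.00187). Its standard partner Rps27, with 0% unique coding stretches, was at 6.28, 8.86 and 8.68 CPM with wild-type Snai1, 10.2, 11.6 and 10.1 CPM with the mutant and 12.1, 10.4 and 10.3 CPM with empty vector and fell (log2 fold change -0.46, SE 0.14, adjusted p = 0.0231), a call lost without empty vector replicate 1 (adjusted p = 0.0796). Rpl3l, a copy of Rpl3 known from heart and skeletal muscle, lies on chromosome 17 from 24727826 to 24736143. It was at 7.37, 16.1 and 11.03 CPM with wild-type Snai1, 3.67, 4.19 and 4.34 CPM with the mutant and 4.25, 5.73 and 5.85 CPM with empty vector, so that each wild-type library lay above the other 6 (log2 fold change 1.12, SE 0.25, adjusted p = 0.00447). Per kb it was at 7.21 CPM with wild-type Snai1 and 3.31 CPM with empty vector, beside 21.98 and 24.3 CPM per kb for Rpl3, which has 4.31% unique coding stretches. Rpl3 was not called (log2 fold change -0.15, SE 0.13, adjusted p = 0.375).

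Rpl10 stood out among the standard genes. It was at 24.9, 40.9 and 40.7 CPM with wild-type Snai1, 32.5, 24.8 and 32.9 CPM with the mutant and 29.5, 26.9 and 26.4 CPM with empty vector, with wild-type replicate 1 apart from the other wild-type libraries, and it was not called (log2 fold change 0.36, SE 0.18, adjusted p = 0.128). Without that library it was called higher (log2 fold change 0.56, adjusted p = 0.000192). It has 0% unique coding stretches. For Rpl10a too, wild-type replicate 1 lay apart, at 44.3 CPM beside 70.5 and 69.8 CPM. Over the 9 libraries, the log2 level of a ribosomal protein gene had a median Pearson correlation of 0.84 with the mean of the others, and 64 of 78 were above 0.5. The least alike were Rpl3l (-0.81), Rps27l (-0.68), Rpl10 (-0.20), Rpl41 (0.04) and Rpl15 (0.09). These correlations include the difference between the groups, and the like values over all tested genes are not given here.

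The second comparison, mutant Snai1 against empty vector, asks what is left when Lsd1 binding is impaired. With the mutant, 0 of the 78 genes were called in either direction by edgeR's quasi-likelihood test; 1 of 12484 tested genes was called, Snai1 itself, or 0.00801%. The smallest adjusted p of a ribosomal protein gene was 0.980, and 1 of the 78 had an unadjusted p under 0.05, as did 4.83% of all tested genes. DESeq2 and limma-voom also called 0. The median log2 fold change was 0.02, from -0.38 for Rpl3l to 0.23 for Rpl38, with a median SE of 0.10. All 3 mutant libraries lay above all 3 empty vector libraries for 4 genes, where 8.53% of all tested genes did, and below for 2, where 9.04% did. Rpl3l was at 3.67, 4.19 and 4.34 CPM with the mutant and 4.25, 5.73 and 5.85 CPM with empty vector.

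The third comparison, wild-type against mutant Snai1, tests the difference between both effects at like levels of Snai1 RNA. The level of Snai1 protein is not known from these data. The wild type was lower for 43 of 78 genes, where 23.4% of all tested genes were lower, and higher for 2, where 24.5% were higher and 47.9% were called in either direction. An unadjusted p under 0.05 was found for 50 of the 78 and for 54.2% of all tested genes. The median log2 fold change was -0.31, and all 3 wild-type libraries lay below all 3 mutant libraries for 49 genes, as for 28.3% of all tested genes. Since this comparison and the first share the wild-type libraries, their values are not independent. In both, 38 genes were lower. The share of all tested genes lower in both is not given here, so the 38 cannot be set against it. Rpl21, Rpl35a and Rps23 were lower only against empty vector, and Rpl18, Rpl38, Rps10, Rps24 and Rps28 only against the mutant. Rpl36a fell most (log2 fold change -0.78, SE 0.10, adjusted p = 0.000121). Rps21 and Rps20 had log2 fold changes of -0.57 and -0.54, and Rpl14 of -0.54 (adjusted p = 6.67e-05). Rpl38, with only 2.69, 2.55 and 2.96 CPM with wild-type Snai1 and 3.41, 3.94 and 5.78 CPM with the mutant, had a log2 fold change of -0.68, a call lost without mutant replicate 3 or wild-type replicate 2 (adjusted p = 0.103 and 0.0674). Rps28 had a log2 fold change of -0.49 (adjusted p = 0.00557). Of the rises, Rpl3l had a log2 fold change of 1.50 (adjusted p = 0.000962), and Rps27l of 0.44 (adjusted p = 0.0136, and 0.0572 without mutant replicate 2). Rpl10 was called higher in this comparison as well without wild-type replicate 1 (adjusted p = 0.00148).

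The TOP class is defined by letters at the start of transcription, so the promoters of the set were searched for them. Of the 81 genes, 61 matched a RefSeq promoter (GRCm38.p6) of 250 bases before to 50 after the annotated start. CTTTC or CTTTT, the core of a TOP start, lay within 50 bases of the start on the gene's strand in 41 of 61 promoters (67.2%), against 20.2% of 9510 promoters of other tested genes. It was in 19 of 28 promoters of genes lower with wild-type Snai1 and in 20 of 28 of genes not called. CGGAAGT, the motif of ETS factors, lay on either strand in 34.4% of these promoters and in 15.6% of others, and CACGTG, bound by Myc, in 9.84% and 11.8%. No motif holds another, but CTTTC can share its last C with the first of the others, and a match is a description, not a site. In the lowered genes printed below, the start letters do not lie at the annotated start itself. They lie before it in Rpl4, Rpl22 and Rps21 and after it in Rps26. Whether these transcripts begin with a TOP stretch was not tested. The stretches below run from 40 bases before to 20 after the annotated start, with the start letters and the ETS motif in capitals. The first 4 are from genes that fell and hold the start letters, and the last 2 from the genes that rose, which lack them in these stretches:
Rpl4, chr9:64173347-64173406, + strand: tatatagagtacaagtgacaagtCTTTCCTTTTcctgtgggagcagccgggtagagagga
Rps26, chr10:128626487-128626546, - strand: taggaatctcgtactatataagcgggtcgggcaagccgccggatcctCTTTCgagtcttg
Rpl22, chr4:152325686-152325745, + strand: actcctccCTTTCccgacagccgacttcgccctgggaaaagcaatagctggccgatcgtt
Rps21, chr2:180257409-180257468, + strand: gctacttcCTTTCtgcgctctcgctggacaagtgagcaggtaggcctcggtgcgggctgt
Rps27l, chr9:66946046-66946105, + strand: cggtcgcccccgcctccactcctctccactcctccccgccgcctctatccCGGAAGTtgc
Rpl3l, chr17:24727786-24727845, + strand: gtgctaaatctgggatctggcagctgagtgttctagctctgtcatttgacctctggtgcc

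CAGGTG, the letters of the E-box that Snail proteins bind, lay on either strand in 7 of 61 promoters (11.5%), against 20.3% of those of other tested genes: Rpl22, Rpl27, Rpl38, Rpl39, Rpl3l, Rpl41 and Rps10. Of the 28 lower genes with a promoter 1 held it, Rpl22, and of the 28 not called 4 did. The stretches of Rpl22, which fell, and Rpl3l, which rose, are shown with these letters in capitals, on the same build:
Rpl22, chr4:152325545-152325574, + strand: ttcttatccggcCAGGTGgtgatttgttta
Rpl3l, chr17:24727669-24727698, + strand: tctccctggtgcCAGGTGttcttaccactg

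Small nucleolar RNAs, which guide chemical marks on ribosomal RNA, are cut from introns of many of these genes: 29 of the 81 hold 58 annotated ones. Of their 28 tested hosts 16 were lower with wild-type Snai1 (median log2 fold change -0.31), and of the 50 tested genes without one 25 were lower and 2 higher (median -0.28). Over all tested genes 24.3% were lower and 25.2% higher. Another annotated gene overlaps 17 of the 81, and since the strand setting of the counting is not given, reads from overlapping partners cannot be told apart. Among the 61 tested genes with no such overlap, 35 were lower and 2 higher.

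Among ribosomal protein genes outside the naming pattern, 3 of 6 fell and 1 rose with wild-type Snai1. For this and the next lists, the shares over all tested genes were 24.3% lower and 25.2% higher. Rack1, a scaffold on the small subunit, was at 882, 750.1 and 789 CPM with wild-type Snai1, 1115, 1008 and 1114 CPM with the mutant and 1040.01, 1052 and 1018 CPM with empty vector (log2 fold change -0.36, SE 0.07, adjusted p = 0.00157). Rpl22l1 had a log2 fold change of -0.28, while Rpl7l1, a copy of Rpl7 that acts in ribosome assembly, rose (log2 fold change 0.20, SE 0.06, adjusted p = 0.0153). Of 23 other transcripts known to begin with a TOP stretch, 15 fell and 1 rose, with a median log2 fold change of -0.28; Rack1 is one of them, and the list also shares 5 genes with the elongation factors and 7 with the initiation factors below. Eef1a1, which brings aminoacyl-tRNA to the ribosome, was at 2111, 1665 and 1789.7 CPM with wild-type Snai1, 2762, 2709.9 and 2816 CPM with the mutant and 2654, 2877 and 2817 CPM with empty vector (log2 fold change -0.59, SE 0.08, adjusted p = 0.000231). Snhg1, a noncoding host of small nucleolar RNAs, had a log2 fold change of -0.53. Vim, an intermediate filament gene, was the one that rose (log2 fold change 0.69, SE 0.08, adjusted p = 5.93e-05). Of 8 elongation factors 4 fell and 1 rose, among them Eef1b2 (-0.45) and Eef2 (-0.31).

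Other parts of the machinery had medians near 0, where 25.2% of all tested genes rose and 24.3% fell. Of 39 initiation factors 11 rose and 6 fell (median 0.05), with Eif3b at 0.37, Eif4g1 at 0.30 and Eif2a at -0.31 on the log2 scale. Of the 39 initiation factors 7 are among the TOP transcripts, and of the 6 that fell 5 are (Eif3e, Eif3f, Eif3h, Eif3k and Eif4b, named after their values were seen). Of the 8 elongation factors 5 are, and of the 4 that fell 3 are. Of the assembly genes below, 1 of 49 is, and so is 1 of the 6 that fell. Among the chaperones below, 3 of 12 are, and 2 of the 3 that fell. The part of the TOP class in these falls was not tested. Of 49 genes for ribosomal RNA transcription and ribosome assembly 8 rose and 6 fell (median -0.000443). Among the falls were Taf1c and Polr1e, which act in transcription by RNA polymerase I, at -0.49 and -0.37, and Wdr12, a large subunit assembly factor, at -0.33. Of 12 chaperones of ribosomal proteins and related factors 3 rose and 3 fell, with Pdcd2, a chaperone of Rps2, at -0.60, Aamp at 0.31 and Rrp7a at 0.29. Of 77 tested mitochondrial ribosomal protein genes 14 rose and 10 fell (median 0.04), with Mrpl9 at -0.61, Mrps31 at -1.18 and Mrps21 at 0.51. With the mutant, 0 genes of these lists were called.

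**Figure D5:**
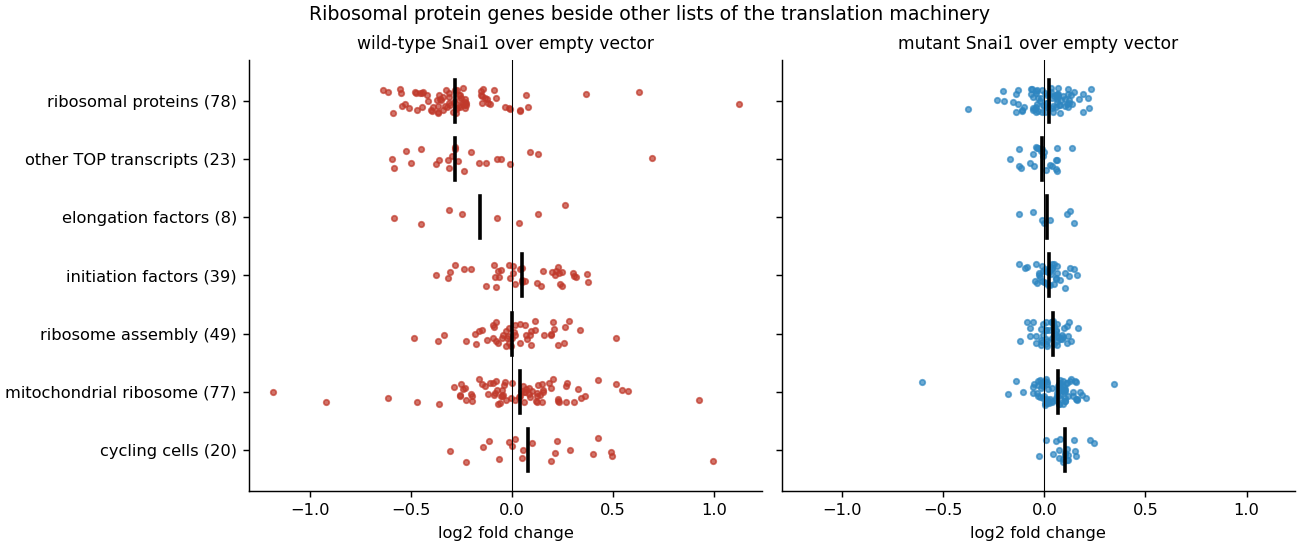
Log2 fold change of each tested gene in 7 lists (number of genes in brackets; black bars, medians) for wild-type Snai1 over empty vector on the left and mutant Snai1 over empty vector on the right. On the left the ribosomal protein genes and the other TOP transcripts both have a median of -0.28, and initiation factors, assembly genes and mitochondrial ribosomal proteins lie around 0. On the right all medians are near 0.

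Of 32 genes of the TOR pathway, Larp1 and the Myc network 6 rose and 9 fell with wild-type Snai1. These counts are near the shares of all tested genes, of which 25.2% rose and 24.3% fell. Mycn was at 2.99, 7.20 and 6.72 CPM with wild-type Snai1, 49.2, 60.5 and 61.8 CPM with the mutant and 76.7, 66.1 and 62.6 CPM with empty vector (log2 fold change -3.60, SE 0.25, adjusted p = 4.65e-06). Ddit4, an inhibitor of TOR, rose (log2 fold change 1.28, SE 0.11, adjusted p = 6.03e-06), and Pdcd4, an inhibitor of the helicase Eif4a, fell (log2 fold change -0.79, SE 0.07, adjusted p = 7.36e-06). Myc, named after its values were seen, was at 184, 214 and 188 CPM with wild-type Snai1, 308, 318 and 327 CPM with the mutant and 340.4, 346 and 312 CPM with empty vector (log2 fold change -0.77, SE 0.07, adjusted p = 1.01e-05), and Larp1, likewise, was not called (log2 fold change -0.04, adjusted p = 0.652). The wild-type libraries of Mycn and Myc lay below the other 6. The part of Mycn, Myc and the TOR pathway in the fall of the ribosomal protein genes was not tested. Of 10 genes listed for the p53 response to ribosomal stress 5 rose and 2 fell. Ribosomal stress was not measured, and its part in these changes was not tested. Cdkn1a, a cell cycle inhibitor, was at 1023, 1166 and 1275 CPM with wild-type Snai1, 579.5, 552 and 673 CPM with the mutant and 498, 476 and 454 CPM with empty vector (log2 fold change 1.28, SE 0.09, adjusted p = 2.84e-06), and Mdm2, the p53 ligase that Rpl5, Rpl11 and Rps27l bind, was at 318, 239 and 282 CPM with wild-type Snai1, 151, 144 and 156 CPM with the mutant and 144, 134 and 137 CPM with empty vector (log2 fold change 1.01, SE 0.09, adjusted p = 1.03e-05). For both, the wild-type libraries lay above the other 6. Bax, a promoter of cell death, had a log2 fold change of 0.85. Of 20 genes of cycling cells 8 rose and 2 fell (median 0.08), among them Rrm2 (0.49), Ccne2 (0.99) and Mcm7 (-0.31), and their summed level was 4392 to 5349 CPM with wild-type Snai1, 5048 to 5319 CPM with the mutant and 4798 to 4978 CPM with empty vector.

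Markers of other cells also differed between wild-type Snai1 and empty vector, where 25.2% of all tested genes rose and 24.3% fell. Of 18 markers of monocytes and macrophages 15 were tested, 12 rose and 3 fell, and their summed level was 1672 to 2270 CPM with wild-type Snai1, 820 to 905 CPM with the mutant and 821 to 832 CPM with empty vector. Cd14, a receptor for bacterial lipopolysaccharide, had a log2 fold change of 6.07, Mpeg1 of 6.95 and Lyz2, a lysozyme, of 5.13. Of 12 late neutrophil markers 5 were tested and 4 rose, with sums of 79.4 to 181 CPM with wild-type Snai1, 2.64 to 4.79 CPM with the mutant and 3.03 to 3.54 CPM with empty vector; Retnlg and Ly6g were at 0. Of 10 erythroid markers found in the table, 6 were tested and 5 fell, with sums of 463 to 681 CPM with wild-type Snai1, 759 to 859 CPM with the mutant and 756 to 773 CPM with empty vector, with Gata1, the erythroid transcription factor, at a log2 fold change of -2.22, and the globins Hba-a1, Hba-a2 and Hbb-bs were at 0. Of 10 lymphoid markers the 2 tested both fell, with sums under 5 CPM in every library and Cd3e, Ms4a1, Pax5 and Ncr1 at 0. Of 9 fibroblast and stromal markers 1 was tested, Pdgfrb, which fell, and Col3a1, Dcn, Lum, Thy1 and Fn1 were at 0. Of the 13 progenitor markers 3 rose and 3 fell, with Lmo2 at 1.01, Runx1 at -0.95 and Tal1 at -0.45. The part of these cell states in the fall of the ribosomal protein genes was not tested.

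The genes outside the set whose log2 level over the 9 libraries was most like the mean of the ribosomal protein genes were Hmgb3 (Pearson's r 0.98), Hscb (0.98), Hdac8 (0.98), Ptpn18 (0.97) and Epb41l4aos (0.97). All these values rest on the same 9 libraries in 3 groups.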

How the data were processed

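Raw counts per gene were deposited for 9 libraries, made by the authors with featureCounts on mm10, per the submitters' processing notes, which also name edgeR 3.15.0 and limma 3.29.12. Poly(A) RNA libraries were prepared with a stranded kit, per the labels' protocols. The aligner, the annotation, the strand setting and the treatment of reads that map to several places are not given in the sources used here. Rows were named by Entrez identifier from RefSeq on GRCm38.p6 (25275 rows) and GENCODE M21 (18 more); 1886 kept no symbol. The table held 0 columns of other samples.

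In R 4.3.3, edgeR 4.0.16 was run with filterByExpr, TMM scaling and a robust quasi-likelihood fit of all 9 libraries, without a replicate block, and p-values were adjusted over 12484 genes by the Benjamini-Hochberg method. The median gene-wise biological coefficient of variation was 9.05% over all tested genes and 9.28% over the ribosomal protein genes. SE is the log2 fold change divided by the root of the test's F. The fit was tested on simulated data. DESeq2 1.42.0 and voom in limma 3.58.1 were alternatives, with other scalings, other filters, fits of 2 groups, pseudogene rows added and each library left out. The floor of 3 counts was 0.144 to 0.164 CPM. Unique stretches were 50-mers of the longest coding part in GENCODE M21, sought on both strands of the transcripts of all other genes that do not overlap.

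Genes were named by a rule: all ribosomal protein genes of the role lists, the 6 largest called rises and falls per comparison, the 5 highest and 5 lowest levels, the 3 genes of smallest adjusted p in each other list, and the 5 most alike genes. Some genes are not reported here by name, though they are part of every count and sum. Other names were chosen after their values were seen, namely Rps28, Rps29, Rpl15, Rpl41, Rpl22l1, Kit, Myc and Larp1, as were names given with a count. The genes studied and the lists were chosen with earlier results of these data known, and the limit of 50% unique stretches and the list of mitochondrial ribosomal proteins were set after seeing the data.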

Additional observations from a re-analysis of the deposited data

How the results depend on the processing

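Under RLE scaling, DESeq2 and limma-voom, 40 to 42 genes were lower with wild-type Snai1 than with empty vector, under upper quartile scaling 45, and with each library left out in turn 34 to 47, beside 41; 2 to 3 were higher, and the median log2 fold change stayed between -0.33 and -0.25 without each library. Of the 43 called, 8 lost their call without some library: Rpl21, Rpl35a, Rpl36, Rpl8, Rps16, Rps18, Rps27 and Rps3. For wild-type against mutant Snai1, 32 to 44 were lower and 1 to 3 higher without each library, beside 43 and 2, with 1 higher without mutant replicate 2, and 14 of 45 calls were lost without some library; the median ran from -0.35 to -0.26, and was -0.38 under upper quartile scaling. For mutant against empty vector 0 were called under all settings, with medians of -0.02 to 0.06 without each library. Shares of counts differed by -0.431 to -0.350, 0.0102 to 0.101 and -0.489 to -0.416 percentage points (wild type over empty vector, mutant over empty vector, wild type over mutant) without each library.

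A restriction chosen after seeing the data kept only the genes with at least 50% unique coding stretches. Of 14 tested, 10 were lower and 2, Rps27l and Rpl3l, higher in both comparisons of the wild type. Over all tested genes, 24.3% were lower and 25.2% higher against empty vector, and 23.4% and 24.5% against the mutant. The median log2 fold changes of this smaller set were -0.32 against both empty vector and the mutant. With 33 pseudogene rows added to 14 genes, Rps27a reversed to -0.25 against empty vector, and 43 and 48 genes were lower in the comparisons of the wild type. For single named genes, 2322 values kept direction and call, 46 lost the call, 25 gained it and 1 reversed. After removal of group means, the correlations of same-numbered libraries of different groups ran from -0.087 to 0.21, 2 of 9 above 0.1. Those of libraries with different numbers ran from -0.17 to 0.12, 1 of 18 above 0.1. Of the 9 libraries, 4 were most like one of their own number. With the replicate block, 39 genes were lower and 2 higher against empty vector, 43 and 2 against the mutant, and 0 were called for mutant against empty vector. The median SE was 0.12 for genes with 0% unique stretches, at a median level of 23.8 CPM per kb, and 0.07 for those with at least 50%, at 763 CPM per kb; the part of depth in this was not tested.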

Other observations

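The rows left out as pseudogenes held counts too. Rpl6l had 2099, 2042 and 2039 counts with wild-type Snai1, 2117, 2134 and 2393 with the mutant and 2534, 2660 and 2250 with empty vector. Rpl32l had 381, 435 and 387 counts with wild-type Snai1, 498, 464 and 535 with the mutant and 634, 541 and 428 with empty vector. Rps4l had 1 count in all. The 33 rows named as pseudogenes of a standard gene held 0.0397% ± 0.00230 of counts with wild-type Snai1, 0.0532% ± 0.00381 with the mutant and 0.0501% ± 0.00290 with empty vector (SD, n = 3 each). Rpl39, below the filter, had 1, 3 and 4 counts with wild-type Snai1, 5, 1 and 5 with the mutant and 0, 1 and 0 with empty vector, too few to compare.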
